A study of Mus musculus with 3 samples.

Results

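Subunits of the BAF (SWI/SNF) chromatin remodeling complex were examined in rostrum RNA, which comes from the front of the embryonic head, of *tuft* and wild-type mouse embryos. The rows of the deposited count tables were taken by gene symbol, and all 10 members (*Smarca2*, *Smarca4*, *Smarcb1*, *Smarcc1*, *Smarcc2*, *Smarcd1*, *Smarce1*, *Arid1a*, *Arid1b* and *Actl6a*) were found among 24062 rows. The *tuft* embryos were homozygous for a nonsense mutation in *Tet1*, which encodes a methylcytosine dioxygenase, and had neural tube defects. The wild-type embryos were of the 3H1 Balb background strain, which the *tuft* line shares. All were at E9 with 18 to 22 somites, and RNA of 3 embryos was pooled for library construction. There are 3 sample records, 2 of *tuft* and 1 of wild type, but the *tuft* counts came as 1 column, which could not be tied to either *tuft* record and could hold 1 of them or both. The 1 column of counts of each genotype is called a library here.

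BAF complexes use the energy of ATP to slide or eject nucleosomes, which opens or closes stretches of DNA to transcription factors. Each complex holds 1 ATPase, either SMARCA4 (BRG1) or its paralog SMARCA2 (BRM), and a set of core and accessory subunits, many of which also exist as alternative paralogs. Canonical BAF is marked by ARID1A or ARID1B, PBAF by ARID2, PBRM1, BRD7 and PHF10, and non-canonical BAF by BRD9 and BICRA or BICRAL. In the developing nervous system some subunits are exchanged when progenitors become neurons, and loss of *Smarca4*, *Smarcb1* or *Smarcc1* disturbs early mouse development.

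Gene counts totaled 14251942 for wild type and 6433067 for *tuft*, a 2.22-fold difference in depth. Of the 24062 rows, 16914 had a count in wild type and 11795 in *tuft*. What part of this difference comes from depth was not tested. With 1 library per genotype no value has a replicate error and no test of the genotype is possible. Counts were scaled by TMM, a trimmed mean of log ratios between libraries (factor of *tuft* relative to wild type, 0.761), and levels are given as normalised CPM (counts per 1000000 counts of the scaled library). A fold change is *tuft* over wild type, with a 95% Clopper-Pearson interval that covers counting error only. A gene was called higher or lower when the whole interval lay above a fold change of 2 or below 0.5. *Tet1* itself had 32 counts in *tuft* against 435 in wild type, which is a fold change of 0.214 (0.145 to 0.307). In both libraries 8 or more of 9 head neural markers had counts, among them *Sox2*, *Otx2*, *Six3* and *Lhx2*. *Rax* had 2 counts in *tuft* against 389 in wild type, and *Hesx1* had none and 36.

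The ratio of the ATPase genes differed most between the libraries among the 5 paralog pairs compared. The *Bcl7* genes were not among these pairs, and *Bcl7a* and *Bcl7b* lay further apart, with fold changes of 3.89 and 0.0481. The promoters of the ATPase genes are shown here because TET1 acts on methylated CpG. No methylation was measured in these libraries. The windows (RefSeq, GRCm38.p6) run from 250 bases before to 50 bases after an annotated start of the gene. For *Smarca4* and *Smarca2* that start lies inside the gene span given below, not at its outer end. Sequences are 5′ to 3′ on the strand of the gene, with each CpG in capitals. *Smarca4* is at chr9:21615919-21616218 and *Smarca2* at chr19:26604910-26605209, both on the plus strand.
Smarca4: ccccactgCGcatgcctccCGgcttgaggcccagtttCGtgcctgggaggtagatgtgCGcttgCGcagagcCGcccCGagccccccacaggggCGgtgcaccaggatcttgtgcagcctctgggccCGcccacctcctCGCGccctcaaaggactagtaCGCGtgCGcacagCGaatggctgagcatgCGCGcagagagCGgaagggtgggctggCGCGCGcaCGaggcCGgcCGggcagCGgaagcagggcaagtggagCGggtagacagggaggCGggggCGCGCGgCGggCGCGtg
Smarca2: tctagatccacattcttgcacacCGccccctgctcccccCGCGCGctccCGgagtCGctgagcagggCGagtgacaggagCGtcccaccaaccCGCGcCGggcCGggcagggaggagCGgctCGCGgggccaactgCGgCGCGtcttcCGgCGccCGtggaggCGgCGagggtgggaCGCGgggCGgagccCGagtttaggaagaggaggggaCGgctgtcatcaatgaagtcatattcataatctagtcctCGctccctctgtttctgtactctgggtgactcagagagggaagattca

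The *Smarca4* window holds 33 CpGs and the *Smarca2* window 29. Windows of 9 of the 10 members were used (not of *Smarce1*), 10 windows in all, with 21 (*Actl6a*) to 48 (*Smarcc2*) CpGs. The median was 33, against 7 over 32851 promoter windows of the same length. Motifs were searched on both strands, and some of them hold CpGs counted above. The GC box GGGCGG was in a window of all 9 of these members and in 35.7% of all windows. The letters GCGCATGC, the core of the motif of NRF1, were in the windows of *Smarca4*, *Smarcc1* and *Smarcb1* and in 2.71% of all windows. Of these 3 genes, *Smarcc1* and *Smarca4* had higher and *Smarcb1* lower normalised counts in *tuft*. TATAAA and CCAAT, in 13.6% and 37.4% of all windows, were in none of the members' windows. The ETS letters CCGGAAG were in the windows of *Smarcc1* and *Smarca2* (8.86% of all windows), and the YY1 letters AAGATGGCG in that of *Smarcd1* (1.40%).

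Reads can align to both paralogs where their transcripts are identical, and such reads were not counted. The longest stretch shared by the longest coding transcripts (GENCODE vM1) of *Smarca4* and *Smarca2* was 20 bases, at bases 825 to 844 and 881 to 900. The longest for *Smarcc1* and *Smarcc2* was 26 bases, at bases 2784 to 2809 and 2774 to 2799. Both lie in coding sequence and are shown to give the extent of the overlap.
Smarca4 and Smarca2: atgttggccaggggccagcc
Smarcc1 and Smarcc2: caaatgaagaaactagagatcaaact

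No window of 50 bases was shared by either pair, nor by *Arid1a* and *Arid1b*, whose longest shared stretch was 29 bases. Of all windows of 20 bases in *Arid1a*, 0.563% were found in *Arid1b*, and the shares were 0.0157% for *Smarca4* in *Smarca2* and 0.122% for *Smarcc1* in *Smarcc2*.

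Among the 10 members, *Smarca2* and *Smarcc1* were called higher in *tuft*, *Smarce1* was called lower, and 7 were not called. Of the 13979 genes tested, 17.4% were called higher and 29.8% lower. The share depends on the level. Of the 4924 tested genes whose mean level lay within that of the members (40.9 to 741 normalised CPM), 23.9% were called higher and 15.4% lower. Beside these shares, 2 and 1 of 10 members do not set the list apart. The members' median log2 fold change was 0.16, and that of the 4924 genes was 0.20 (quartiles -0.69 and 1.09). Over all tested genes the median stayed below 0 after TMM, at -0.55 (quartiles -3.25 and 0.78). Scaling by library totals moves all log2 fold changes by -0.39. On that scale *Smarca2* alone was called higher, *Smarcb1*, *Smarce1* and *Actl6a* were called lower, and the shares of all tested genes were 12.4% and 37.8%. TMM over genes with at least 100 counts in each library, which moves them by -0.36, gave the same calls of the members, with 12.8% and 37.2% of all tested genes called.

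**Figure D1:**
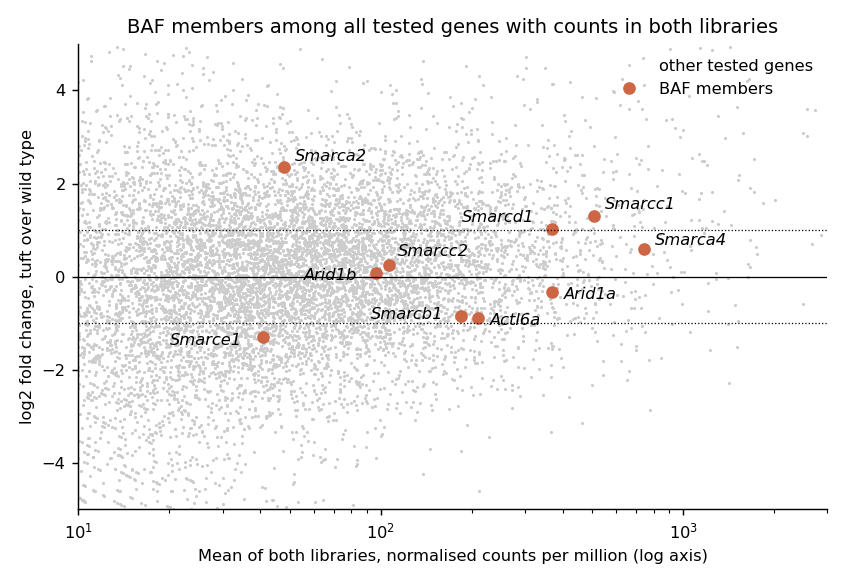
log2 fold change (*tuft* over wild type) against the mean of both libraries in normalised CPM (log axis), for tested genes with counts in both libraries (gray) and the 10 BAF members (orange). The dotted lines mark 2-fold differences, and axes are limited to the range around the members, which lie between -1.31 and 2.36 within the cloud of other genes.

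*Smarca2* (chr19:26605073-26778321 of GRCm38), the ATPase of BRM-type complexes, had 449 counts in *tuft* against 254 in the deeper wild-type library. These are 80.0 normalised CPM in *tuft* and 15.5 in wild type, which is a fold change of 5.15 (4.40 to 6.03). This was the highest of the members and lay at percentile 93.3 of all tested genes. *Smarca2* was also called at a threshold of 4-fold and with library totals, where its log2 fold change was 1.97. It overlaps 4931403E22Rik, which had none in *tuft* against 5 counts in wild type.

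*Smarca4* (chr9:21616106-21704230), the alternative ATPase, had the most counts of the members in both libraries, 5007 in *tuft* and 9640 in wild type. Its levels were 892 and 590 normalised CPM, which is a fold change of 1.51 (1.46 to 1.57) that was not called. Within wild type there were 38.0 *Smarca4* counts (33.5 to 43.2) for each *Smarca2* count, and within *tuft* there were 11.2 (10.1 to 12.3). The ratio was 3.40 times lower in *tuft* (2.90 to 4.0). This comparison needs no scaling between the libraries. Per kilobase of transcript the ratio was 35.2 in wild type and 10.3 in *tuft*, so *Smarca4* remained the more abundant ATPase transcript in both.

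The core scaffold genes *Smarcc1* and *Smarcc2*, which encode BAF155 and BAF170, differed as well. *Smarcc1* (chr9:110132024-110240178) had 4064 counts in *tuft* against 4785 in wild type, or 724 and 293 normalised CPM. Its fold change was 2.47 (2.37 to 2.58). It was not called with library totals (log2 fold change 0.91) or with TMM over genes with at least 100 counts in each library (0.95). *Smarcc2* (chr10:128459182-128490591) had 649 and 1598 counts, or 116 and 97.8 normalised CPM. Its fold change was 1.18 (1.08 to 1.30), and with library totals the log2 fold change turned to -0.15. The ratio of *Smarcc1* to *Smarcc2* counts was 2.99 (2.83 to 3.17) in wild type and 6.26 (5.76 to 6.81) in *tuft*, 2.09 times higher in *tuft* (1.89 to 2.32). The intervals of the 2 libraries did not overlap.

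*Smarcd1* (chr15:99702287-99713995), which encodes BAF60a, a subunit that links the complex to transcription factors, had 2780 counts in *tuft* against 3974 in wild type. Its levels were 495 and 243 normalised CPM, and its fold change of 2.04 (1.94 to 2.14) had an interval that crossed the threshold of 2. With the size factors of DESeq2, which move log2 fold changes by 0.05, it was called higher. Its paralogs, which are not among the 10 members, were both called higher. *Smarcd2* had 1170 counts in *tuft* against 952 in wild type, which is a fold change of 3.58 (3.28 to 3.90). *Smarcd3* had 194 and 148 counts, which is a fold change of 3.82 (3.07 to 4.76), and overlaps *Chpf2*. Counts of *Smarcd1* per count of *Smarcd2* went from 4.17 in wild type to 2.38 in *tuft*, 1.76 times lower (1.59 to 1.94), and those per count of *Smarcd3* from 26.9 to 14.3, 1.87 times lower (1.5 to 2.35). All 3 *Smarcd* genes were thus above 1, by unequal amounts.

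**Figure D2:**
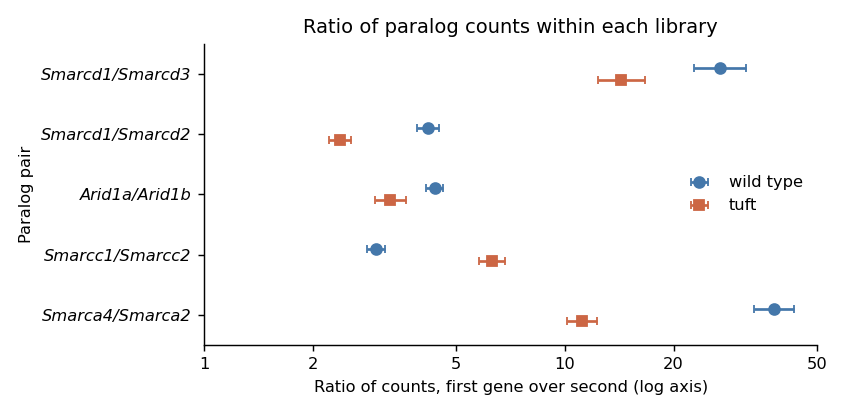
Ratio of the counts of paralogous subunit genes within each library (log axis), with 95% intervals for counting error, for wild type (circles) and *tuft* (squares). The intervals of the libraries are apart for each of the 5 pairs, with *Smarca4*/*Smarca2* at 38.0 in wild type and 11.2 in *tuft*, and *Smarcc1*/*Smarcc2* at 2.99 and 6.26.

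The members below 1 were *Smarce1*, *Actl6a*, *Smarcb1* and *Arid1a*. *Smarce1* (chr11:99209047-99231017), which encodes the HMG-box DNA-binding subunit BAF57, had 132 counts in *tuft* against 952 in wild type. Its levels were 23.5 and 58.3 normalised CPM, the lowest of the members in *tuft*. The fold change was 0.404 (0.334 to 0.485), and the gene was not called with the size factors of DESeq2. The annotation names a pseudogene, *Smarce1-ps1*, and reads that align to both were not counted.

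*Smarcb1* (chr10:75896769-75921614) encodes the core subunit BAF47, a tumor suppressor that contacts the nucleosome. It had 739 counts in *tuft* against 3858 in wild type, or 132 and 236 normalised CPM. The fold change of 0.558 (0.515 to 0.604) was not called. It was called lower with library totals (log2 fold change -1.24) and with TMM over genes with at least 100 counts in each library.

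*Actl6a* (chr3:32708546-32726973) encodes the actin-related protein BAF53a, which is also part of the INO80 and TIP60 complexes. It had 821 counts in *tuft* against 4446 in wild type, or 146 and 272 normalised CPM. Its fold change was 0.538 (0.499 to 0.579), and it was called lower with library totals (log2 fold change -1.29) and with TMM over genes with at least 100 counts in each library (-1.25). *Smarcb1*, *Actl6a*, *Smarce1* and *Arid1a* were below 1 under each of the 5 scalings tried.

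The *Arid1* genes, whose products define canonical BAF, were among the members nearest to 1. *Arid1a* (chr4:133679008-133756769) had 1823 counts in *tuft* against 6700 in wild type, or 325 and 410 normalised CPM, which is a fold change of 0.792 (0.752 to 0.835). *Arid1b* (chr17:4994297-5347656) had 555 and 1539 counts, or 98.9 and 94.2 normalised CPM. Its fold change of 1.05 (0.951 to 1.16) was the only one of the 10 with an interval that held 1, and with library totals its log2 fold change was -0.32. The ratio of *Arid1a* to *Arid1b* counts was 4.35 (4.12 to 4.60) in wild type and 3.28 (2.99 to 3.62) in *tuft*, 1.33 times lower in *tuft* (1.18 to 1.48). *Arid1a* overlaps *Mir7227*, which had no count in either library.

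**Figure D3:**
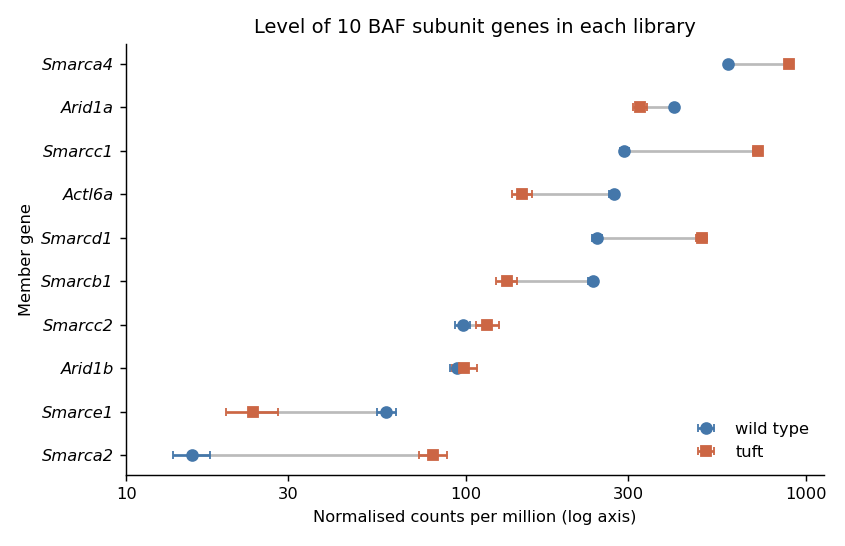
Level of each member in normalised CPM (log axis) in wild type (circles) and *tuft* (squares), with 95% intervals for counting error, ordered by the wild-type level. *Smarca2* spans the widest gap, from 15.5 in wild type to 80.0 in *tuft*, and *Arid1b* the narrowest, from 94.2 to 98.9.

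Levels of different genes were compared as normalised CPM per kilobase of the longest coding transcript. In wild type *Smarcb1* (142) and *Actl6a* (138) were highest, with overlapping intervals. They were followed by *Smarca4* (92.5), *Smarcd1* (77.1), *Smarcc1* (50.7) and *Arid1a* (50.1), of which the last 2 overlapped. *Smarce1* (19.96) and *Smarcc2* (19.82) overlapped as well, and *Arid1b* (8.32) and *Smarca2* (2.63) were lowest. In *tuft* the order was *Smarcd1* (157), *Smarca4* (140), *Smarcc1* (125), *Smarcb1* (79.3), *Actl6a* (74.4), *Arid1a* (39.7), *Smarcc2* (23.4), *Smarca2* (13.5), *Arid1b* (8.73) and *Smarce1* (8.06). There *Smarcb1* and *Actl6a* overlapped, and so did *Arid1b* and *Smarce1*. *Smarcb1* and *Actl6a* thus moved from the top of the order to below *Smarcd1*, *Smarca4* and *Smarcc1*.

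The make-up of the members' counts within each library, which also needs no scaling, was compared next. The members summed to 37746 counts in wild type and 17019 in *tuft*. *Smarcc1* held 12.7% of them in wild type (12.3 to 13.0) and 23.9% in *tuft* (23.2 to 24.5), and *Smarcd1* 10.5% (10.2 to 10.8) and 16.3% (15.8 to 16.9). *Smarca4* held the largest share in both, 25.5% (25.1 to 26.0) and 29.4% (28.7 to 30.1). Per kilobase of transcript, *Smarcb1* held the largest share in wild type (23.6%) and *Smarcd1* in *tuft* (23.5%). The share of *Smarcb1* was 10.2% (9.92 to 10.5) in wild type and 4.34% (4.04 to 4.66) in *tuft*, and that of *Actl6a* 11.8% (11.5 to 12.1) and 4.82% (4.51 to 5.16). *Smarca2* held 0.673% (0.593 to 0.761) and 2.64% (2.40 to 2.89). The summed level of the members was 2310 normalised CPM in wild type and 3033 in *tuft*.

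**Figure D4:**
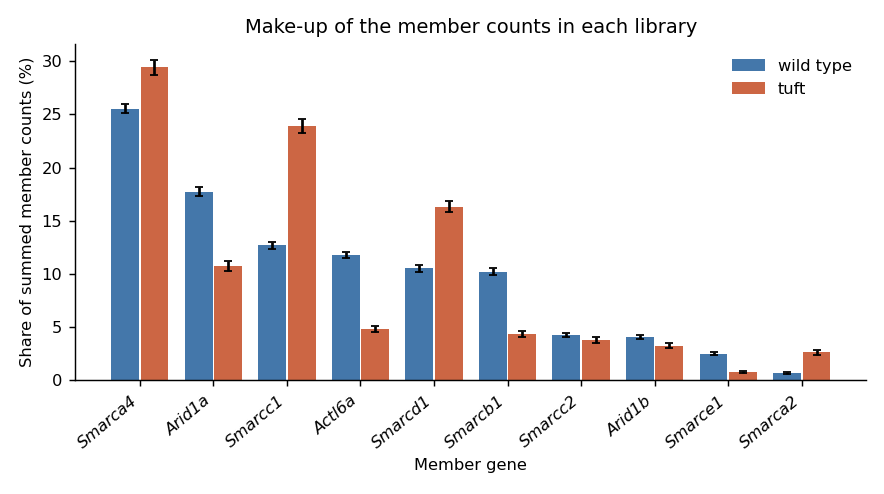
Share of each member in the summed counts of the 10 members (percent) in wild type (blue bars) and *tuft* (orange bars), with 95% Clopper-Pearson intervals. *Smarcc1* holds 12.7% of the total in wild type and 23.9% in *tuft*, and *Actl6a* 11.8% and 4.82%.

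The other subunits of the family gave the setting. Of 21 further genes, 18 had at least 10 counts in the libraries together, and of these 3 were called higher and 7 lower. Of all tested genes 17.4% were called higher and 29.8% lower, and of those at the members' level 23.9% and 15.4%. Of the 7 called lower, only *Brd7* and *Phf10* had a mean level within that of the members. Neither share is thus matched to this list, and the counts are not read against them. The 3 higher were *Smarcd2*, *Smarcd3* and *Bcl7a*, a small accessory subunit with 1467 counts in *tuft* against 1097 in wild type and a fold change of 3.89 (3.60 to 4.21). Its paralog *Bcl7b* was called lower, with 7 and 424 counts and a fold change of 0.0481 (0.0192 to 0.0999). *Bcl7c* had 35 and 206 counts and a fold change of 0.495 (0.335 to 0.711). *Dpf2*, the broadly expressed PHD-finger subunit, had 789 and 3977 counts and a fold change of 0.578 (0.535 to 0.624). *Actb*, whose product is a subunit as well as a part of the cytoskeleton, had a fold change of 1.63 (1.60 to 1.66).

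The 3 genes that mark non-canonical BAF were all called lower in *tuft*. They are not all of its subunits, and the list is too short to read against the 29.8% of all tested genes called lower. *Brd9*, the bromodomain subunit of that complex, had 104 counts in *tuft* against 785 in wild type, which is a fold change of 0.386 (0.311 to 0.474). *Bicra*, listed as *Gltscr1*, had 3 and 630 counts, which is a fold change of 0.0139 (0.00285 to 0.0407), and *Bicral*, listed as *Gltscr1l*, had 7 and 208 counts, which is a fold change of 0.0980 (0.0389 to 0.206). The summed level of the 3 genes was 20.3 normalised CPM in *tuft* and 99.3 in wild type. Of the genes that mark PBAF, *Brd7* and *Phf10* were called lower, with 104 and 1662 counts (fold change 0.182, 0.148 to 0.222) and 95 and 1742 counts (0.159, 0.128 to 0.195). *Arid2*, the ARID subunit of PBAF, had 400 and 2270 counts and a fold change of 0.513 (0.460 to 0.571), and *Pbrm1*, the polybromo subunit, had 508 and 1317 counts and a fold change of 1.12 (1.01 to 1.25). *Brd7* overlaps *Adcy7*, and reads that fit both can have been left out as ambiguous.

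**Figure D5:**
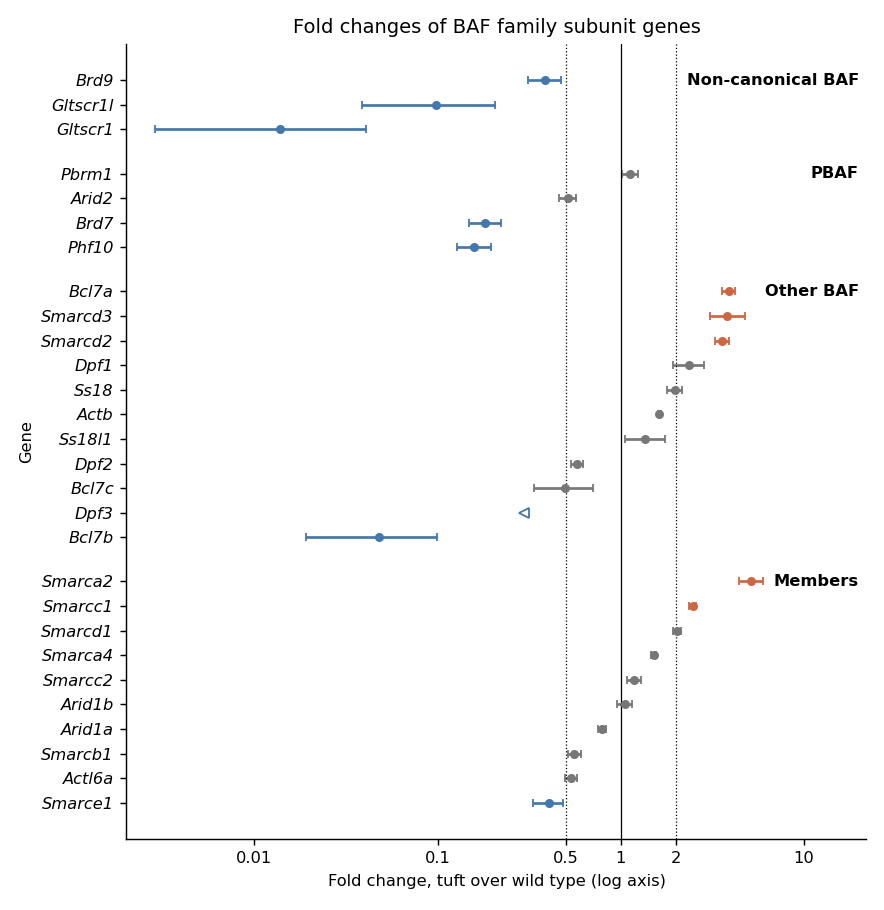
Fold change (*tuft* over wild type, log axis) of the 10 members and of the other BAF, PBAF and non-canonical BAF genes with at least 10 counts in the libraries together, with 95% intervals for counting error. Orange genes were called higher, blue genes lower and gray genes not, dotted lines mark 0.5 and 2, and the open triangle is the upper limit for *Dpf3*, which had no count in *tuft*.

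Of the progenitor subunits that neurons exchange, *Phf10* was called lower and *Actl6a* was not called. *Ss18*, a gene also known from synovial sarcoma fusions, had 769 counts in *tuft* against 1133 in wild type and a fold change of 1.98 (1.80 to 2.17). Of their neuronal counterparts, *Actl6b* and *Dpf3* had no count in *tuft*. *Actl6b* had none in *tuft* against 3 counts in wild type, so that there were 1482 counts of *Actl6a* for each of *Actl6b* in wild type (507 to 7189). *Dpf3* had none in *tuft* against 38 counts in wild type, and the upper limit of its fold change was 0.297. *Dpf1* had 192 and 238 counts and a fold change of 2.35 (1.93 to 2.85), and *Ss18l1* had 95 and 204 counts and a fold change of 1.36 (1.05 to 1.74). *Bcl11a* and *Bcl11b*, transcription factors that join BAF in neurons and lymphocytes, had 9 and 3 counts in wild type and none in *tuft*. The neuron markers, 5 of 6 of them tested, summed to 128 normalised CPM in *tuft* and 90.2 in wild type, and 1, *Elavl3*, was called higher.

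Markers of other cell types differed between the libraries too. Of 11 yolk sac genes, 9 were called lower in *tuft*, with a summed level of 327 normalised CPM against 2049 in wild type, and *Apoa4*, *Apoc2* and *Fgb* were at 0 in *tuft*. The tissue was the front of the head, and whether yolk sac was carried into either pool was not tested. Of 5 endothelial genes 3 were called lower, with sums of 77.3 and 242 and *Pecam1* at 0 in *tuft*. The 7 mesenchyme and neural crest genes summed to 575 in *tuft* and 209 in wild type, with *Sox10* and *Twist1* called higher and *Foxd3* at 0 in *tuft*. Surface ectoderm genes summed to 884 and 520, with 1 of 6 called in each direction. Of 8 erythroid genes 7 were tested, with 3 called higher and 3 lower and sums of 40728 and 2796, and *Klf1* and *Gata1* were at 0 in *tuft*. The neural ectoderm genes summed to 915 and 657, with 2 of 9 called in each direction. The part of these cell types in the values of the BAF genes was not tested. Fewer cells of a type and less RNA per cell cannot be told apart in pooled tissue, and neither can genotype and library.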

How the data were processed

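The members and gene lists were chosen with earlier results of these data known. The authors deposited raw counts per gene symbol, 1 column per genotype, made from single-end Ion Proton reads of poly-A RNA. They trimmed reads with PRINSEQ, aligned them to mm10 with TopHat (TopHat2 2.0.14 and Bowtie2 2.2.5 in the submitters' notes) and counted with htseq-count; its strand setting, overlap mode and gene models are not given in the sources used here. The 5 summary lines of each table, which held 72.6% of entries in *tuft* and 62.7% in wild type (59.2% and 51.4% were alignments that were not unique), were left out. Reads with several alignments were thus not counted. Nor were reads that were ambiguous between overlapping genes, 0.667% of entries in *tuft* and 0.526% in wild type.

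TMM factors came from edgeR 4.0.16 in R 4.3.3, and all else from Python 3.11.15 with scipy 1.17.1. Genes with 10 or more counts, summed over the libraries, were tested. A quasi-likelihood fit would have had no degrees of freedom left, so a call is a size of fold change, and no p-value is given. Intervals cover counting error only, since there is 1 library per genotype. Reads carry no molecular identifiers, so repeated reads of 1 molecule could not be told apart, and the intervals can be too narrow. Ratios of paralogs carry conditional odds ratio intervals. The authors' method, NOISeq-sim, was re-implemented as an alternative. Alternatives were library totals, the upper quartile, DESeq2's size factors (from their definition), TMM over genes with at least 100 counts in each library, thresholds of 1.5-fold and 4-fold, and other filters. Named genes are the 10 members, the other BAF family genes, *Tet1* and some of the markers, mostly those called or without counts in *tuft*. Positions are of GRCm38.p6 (RefSeq), and transcript lengths of GENCODE vM1.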

Additional observations from a re-analysis of the deposited data

How the results depend on the processing

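No paired analysis was possible because there is 1 column of counts per genotype. Results moved mainly with the scaling and the threshold. With library totals alone, 1 member was called higher and 3 lower, and the members' median log2 fold change was -0.24. TMM over genes with at least 100 counts in each library, for which calls were counted after seeing the data, gave the same 1 and 3 members and a median of -0.20. Of the members, 4 were above 1 with both of these and 6 with TMM, and the share of lower genes among all calls was 75.3% with library totals and 63.2% with TMM. With DESeq2's size factors 0 members were called lower, since the interval of *Smarce1* then reached 0.5, and 3 were called higher. On that scale 4078 of the 13979 genes tested were called lower and 2532 higher. At 1.5-fold, 3 members were called higher and 3 lower, with 15 other BAF subunits and 8722 of the 13979 genes called in either direction. At 4-fold, 1 was called higher and 0 lower, with 5 other BAF subunits and 3188 genes in all, against 10 and 6605 at 2-fold. NOISeq-sim as re-implemented here called the same 3 members, *Smarcc1* and *Smarce1* just above its threshold. With it, 9 other BAF subunits and 5726 genes in all were called. The paper reports fewer genes from its own run of the method. The calls of the re-implementation therefore do not stand in for those of the authors. The median moved between 0.07 and 0.24 when each member was left out in turn. The upper quartile and the filters on low counts kept each count within 1.5 times. The ratios of ratios between paralogs do not depend on scaling or length. What a second library of either genotype would show was not tested, and genes with few counts in *tuft*, such as *Bcl7b*, *Gltscr1* and *Gltscr1l*, carry the widest intervals.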
